A study of Mus musculus with 20 samples.

Results

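The genes described here are 10 secreted or membrane-bound regulators of Wnt signalling: the receptor Lgr5, its ligands Rspo1 and Rspo3, and the secreted antagonists Dkk2, Dkk3, Wif1, Sfrp1, Sfrp2, Sfrp4 and Notum. They were chosen by name, and a gene's level is that of its brightest probe set over all arrays among the probe sets annotated to it alone. That rule gave a level for 9 of the 10 genes, out of 17097 genes measured. Sfrp4 was not analysed here, because no probe set was annotated to it alone, and 3 probe sets annotated to both Serinc3 and Sfrp1 were left out.

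RNA of dermal fibroblasts from female mice was measured on 20 arrays, 1 per mouse and 5 per group. Old CR-ND mice received 30% caloric restriction (CR) for 7 months and then a normal diet (ND) for 2 months. Old CR mice received the normal diet for 2 months and then the same restriction for 7 months. For Old ND mice the normal diet lasted all 9 months. These 3 groups entered at an age of 9 months, and collection was at 18 months. For Young ND mice the labels give an age of 4 weeks and 4 weeks of normal diet, without saying whether those weeks are the same. All 4 groups were sorted alike from skin without its subdermis, as cells with Pdgfra and CD34 on the surface and without EpCam, CD24, CD45, CD31 or CD117, and the amplified RNA was hybridised. Strain and genotype are not given in the labels.

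Wnt proteins are secreted lipid-modified ligands that bind Frizzled receptors and the Lrp5 and Lrp6 coreceptors and stabilise beta-catenin in the receiving cell. R-spondins bind Lgr receptors and protect Frizzled receptors from removal by the ligases Rnf43 and Znrf3, which raises the response to Wnt. Dickkopf proteins such as Dkk2, though not Dkk3 as far as is known, bind the Lrp coreceptors. Sfrp proteins and Wif1 bind Wnt itself, and Notum removes the lipid that Wnt needs. In skin, Wnt signals from epidermis and dermis are known for their part in hair follicle growth and in the identity of dermal fibroblast subsets.

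All levels are log2 array levels, all differences are log2 differences ± the standard error of limma, and adjusted p-values are over the 17097 genes. The fibroblast marker list averaged 10.76 to 11.01 on every array. However, 3 of its 9 genes, Col1a1, Col3a1 and Cd34, fell in Old ND relative to Young ND, where 10.9% of all genes passed. Relative to Young ND, 3 of the 9 also fell in Old CR (12.7% of all genes) and 1 in Old CR-ND (7.04%). The Cd34 call ended after repeated quantile normalization (adjusted p = 0.158). It also ended on leaving out Old ND replicate 1 or 3 or Young ND replicate 3, 4 or 5. The 5 markers of cells that were sorted against averaged 4.41 to 4.70 in Old CR-ND, 4.33 to 4.49 in Old CR, 4.40 to 4.73 in Old ND and 4.72 to 4.98 in Young ND. Of these 5, Cd24a alone passed in any comparison: it averaged 5.43 ± 0.43 in Old CR-ND, 4.83 ± 0.15 in Old CR, 5.56 ± 0.30 in Old ND and 6.73 ± 0.49 in Young ND (SD, n = 5 each), lower than Young ND in all 3 old groups. Its part in the results was not tested. Median array levels were 5.27 to 5.34, and no 2 arrays held identical values. The bracketed numbers in the sample titles, here called array numbers, formed 2 runs of 13 and 7 arrays, and the second run held 1 Old CR array. The labels do not say what these numbers count. Because these are bulk samples, fewer cells of a type and less RNA per cell cannot be told apart.

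Lgr5, Dkk2 and Sfrp1 differed between the restricted and the normal diet in old mice. Between Old CR and Old ND, Lgr5 and Sfrp1 rose and Dkk2 fell, while 6 of the 9 genes did not pass the test. Between Old CR-ND and Old CR, Lgr5 was the member that passed, and it fell. Between Old ND and Young ND, Lgr5 and Dkk3 rose and Rspo1 and Notum fell. No member passed between Old CR-ND and Old ND.

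**Figure D1:**
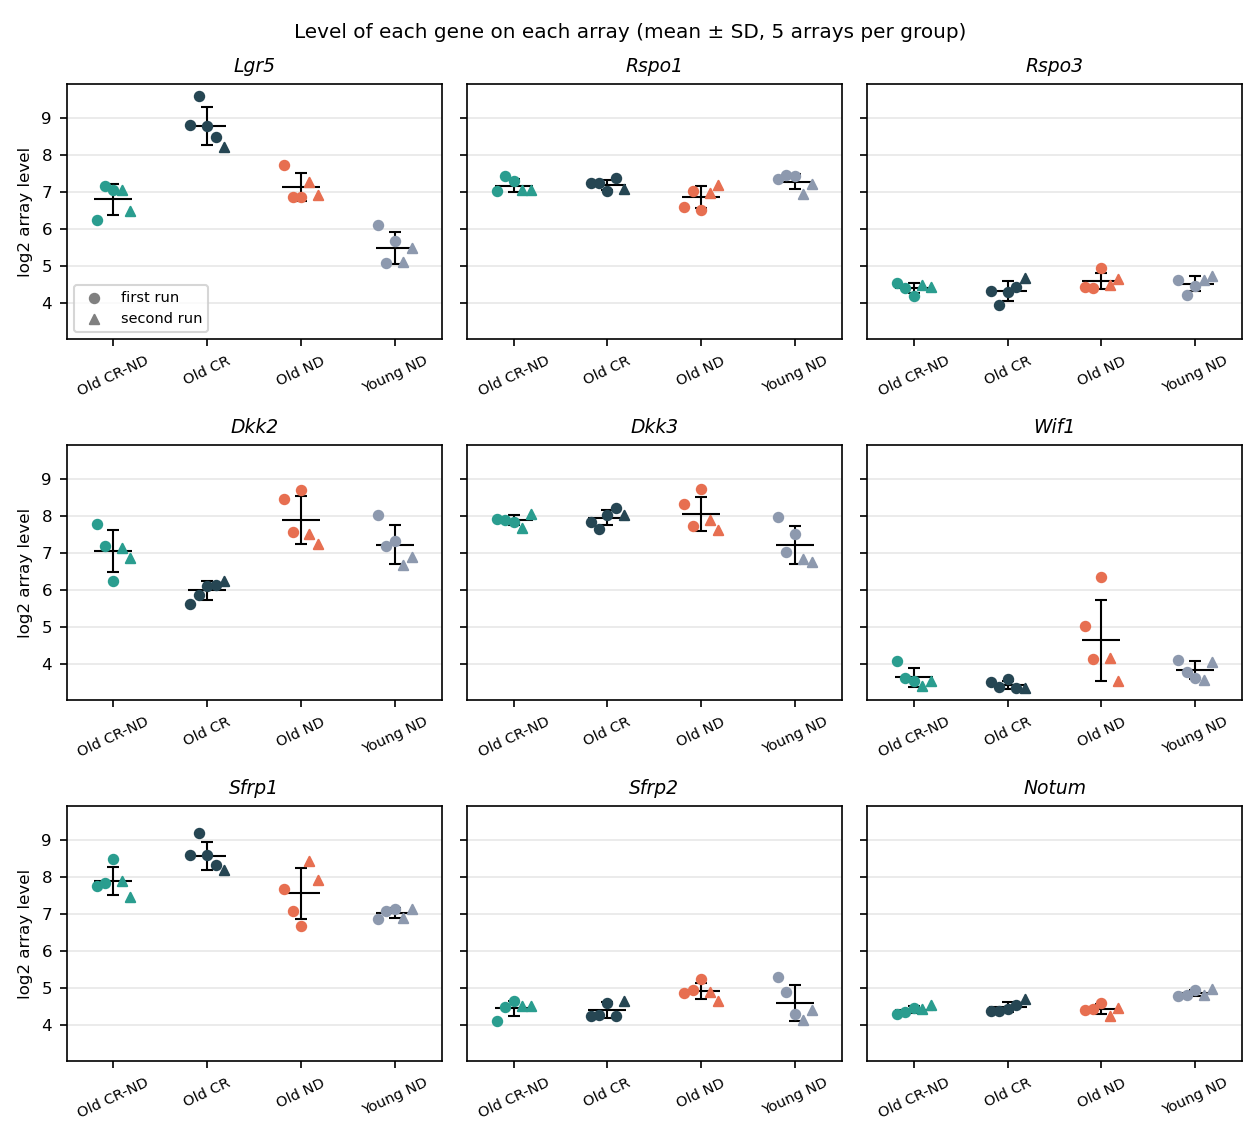
Log2 array level (vertical axis) of each of the 9 measured genes on each array, by group (horizontal axis), with circles for the first and triangles for the second run of array numbers and bars for the mean ± SD of 5 arrays. Lgr5 lay at 8.21 to 9.58 in Old CR, above each other group, and Dkk2 lay at 5.62 to 6.25 in Old CR, below every Old ND array.

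Lgr5, the R-spondin receptor that marks stem cells of the gut and the hair follicle, spanned the widest range. Its level was 6.24, 7.15, 7.06, 7.06 and 6.48 in Old CR-ND. It was 8.79, 9.58, 8.78, 8.48 and 8.21 in Old CR. It was 7.73, 6.87, 6.87, 7.26 and 6.92 in Old ND, and 6.11, 5.07, 5.68, 5.11 and 5.50 in Young ND. All 5 Old CR arrays thus lay above all others, all 5 Young ND arrays lay below all others, and Old CR-ND overlapped Old ND. The means were 6.80 ± 0.41 in Old CR-ND, 8.77 ± 0.51 in Old CR, 7.13 ± 0.37 in Old ND and 5.49 ± 0.43 in Young ND (SD, n = 5 each).

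The restriction difference of Lgr5, Old CR over Old ND, was 1.64 ± 0.25, or 3.11-fold (limma, adjusted p = 0.00192). In Old CR-ND it fell by 1.97 ± 0.25 relative to Old CR, or 3.92-fold (adjusted p = 0.00071). Old CR-ND and Old ND did not pass a test, with a difference of -0.33 and a 95% interval of -0.85 to 0.19. Lgr5 also rose in each old group over Young ND, by 1.30 ± 0.25 in Old CR-ND (adjusted p = 0.00189), 3.27 ± 0.25 in Old CR (adjusted p = 3.53e-08) and 1.64 ± 0.25 in Old ND (adjusted p = 0.000127). These comparisons share arrays, so they are not independent of each other.

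The Old CR over Old ND difference of Lgr5 was 1.75 among first-run arrays (adjusted p = 0.00823). Among second-run arrays, 1 of them Old CR, it was 1.12 (adjusted p = 0.539). A second, dimmer probe set of Lgr5 read 4.02, 4.54, 4.62, 4.43 and 4.81 in Old CR-ND and 4.46, 5.63, 5.15, 5.21 and 4.62 in Old CR. It read 4.40, 4.74, 4.22, 4.55 and 4.64 in Old ND and 4.30, 4.14, 4.23, 4.29 and 4.06 in Young ND. On this probe set Old CR and Old ND overlapped and the difference did not pass (0.50, adjusted p = 0.157), nor did Old CR-ND against Old CR (-0.53, adjusted p = 0.268), while every Old CR array lay above every Young ND array (0.81, adjusted p = 0.0039). The rises over Young ND did not pass on it in Old CR-ND (0.28, adjusted p = 0.43) or in Old ND (0.31, adjusted p = 0.322). With the mean of both probe sets as the level, the differences were 1.07 for Old CR over Old ND (adjusted p = 0.00358), -1.25 for Old CR-ND over Old CR and 2.04 for Old CR over Young ND.

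The genes whose centred levels over the 20 arrays were most like those of Lgr5, by root mean square difference, were Penk (0.67), Adcyap1r1 (0.67) and Nabp1 (0.69), beside an SD of 1.26 for Lgr5 itself. Penk encodes the precursor of the enkephalin peptides, Adcyap1r1 a receptor of the neuropeptide PACAP, and Nabp1 a protein that binds single-stranded DNA. Adcyap1r1 averaged 7.76 in Old CR-ND, 8.68 in Old CR, 7.78 in Old ND and 6.50 in Young ND. Penk averaged 10.27 in Old CR-ND, 10.86 in Old CR, 10.25 in Old ND and 8.93 in Young ND. The differences between Old CR and Old ND were smaller in both than in Lgr5.

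Rspo1, a ligand of the Lgr receptors, had levels of 7.01 to 7.43 in Old CR-ND and 7.02 to 7.36 in Old CR. It was at 6.59, 7.03, 6.51, 6.97 and 7.18 in Old ND, against 7.34, 7.46, 7.44, 6.94 and 7.21 in Young ND. Rspo1 fell in Old ND by 0.42 ± 0.13 (adjusted p = 0.0353), with overlapping groups: Old ND replicates 1 and 3 were the lowest. The difference was -0.70 in the first run (adjusted p = 0.00658) and 0.00 in the second run, and leaving out any of 6 arrays, Old ND replicates 1 and 3 and Young ND replicates 1, 2, 3 and 5, ended the call (adjusted p = 0.0528 to 0.104). Between Old CR and Old ND the difference of 0.34 did not pass (adjusted p = 0.198).

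Rspo3, a second Lgr ligand with a known part in vessel and hair growth, was dim. It averaged 4.42 ± 0.13 in Old CR-ND, 4.34 ± 0.27 in Old CR, 4.60 ± 0.22 in Old ND and 4.53 ± 0.19 in Young ND (SD, n = 5 each), and no comparison passed. The lower quartile of the arrays lay at 4.11 to 4.25, and Notum, Sfrp2 and Wif1 were near it as well. At such levels background narrows the log2 scale of an array, so small differences of these 4 genes are poorly resolved.

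Dkk2, a Dickkopf protein that binds Lrp6, ran opposite to Lgr5 between the 2 diets. Its promoter is shown because Dkk2 had the largest fall among the members in restricted mice, and that of Wif1 because it was next in size and did not pass. RefSeq windows of 250 bases before to 50 after a start site (GRCm38.p6) were at hand for 4 of the 10 genes, Dkk2, Rspo1, Sfrp2 and Wif1. For Dkk2 that site is not the first base of the RefSeq gene, which is 132085266. Dkk2 lies at chr3:132085042-132085341 and Wif1 at chr10:121033754-121034053, both on the plus strand, and capitals mark each match to a searched motif on either strand.
Dkk2 promoter: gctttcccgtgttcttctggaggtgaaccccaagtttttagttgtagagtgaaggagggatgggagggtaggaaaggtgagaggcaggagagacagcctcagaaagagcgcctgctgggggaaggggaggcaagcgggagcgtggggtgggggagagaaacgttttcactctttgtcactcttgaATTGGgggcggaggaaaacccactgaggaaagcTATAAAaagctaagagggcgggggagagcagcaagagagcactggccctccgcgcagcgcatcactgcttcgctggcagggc
Wif1 promoter: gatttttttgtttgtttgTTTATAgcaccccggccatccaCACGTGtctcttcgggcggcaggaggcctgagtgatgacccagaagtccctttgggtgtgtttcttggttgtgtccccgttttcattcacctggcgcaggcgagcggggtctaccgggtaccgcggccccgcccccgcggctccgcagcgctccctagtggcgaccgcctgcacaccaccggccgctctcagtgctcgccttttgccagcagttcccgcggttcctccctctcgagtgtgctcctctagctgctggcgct

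The motifs searched, on both strands, were TATAAA (core of the TATA box, in 13.6% of 32851 windows of the same length), CCAAT (37.4%), CACGTG (an E-box, 7.2%), CTTTGA (core of the TCF/LEF site, 16.0%) and GTAAACA (a FOXO site, 3.6%), and no match overlapped another. The Dkk2 window has TATAAA on its own strand at -32 and CCAAT on the opposite strand, printed as ATTGG, at -65, counted from the start site of the window. The Wif1 window has CACGTG at -210 and TATAAA on the opposite strand, printed as TTTATA, at -232. CTTTGA and GTAAACA were in none of the 4 windows. The Dkk2 window holds 57.7% G and C with 11 CG pairs, and the Wif1 window 63.0% with 25, beside medians of 52.7% and 7 over all windows.

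The level of Dkk2 was 7.79, 7.18, 6.24, 7.14 and 6.86 in Old CR-ND. It was 5.62, 5.86, 6.12, 6.13 and 6.25 in Old CR. It was 8.44, 7.57, 8.68, 7.50 and 7.23 in Old ND, and 8.03, 7.19, 7.31, 6.66 and 6.88 in Young ND. Every Old CR array was below every Old ND and Young ND array, and 1 Old CR-ND array, at 6.24, reached into the Old CR range. The means were 7.04 ± 0.56 in Old CR-ND, 6.00 ± 0.25 in Old CR, 7.88 ± 0.64 in Old ND and 7.21 ± 0.52 in Young ND (SD, n = 5 each).

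In Old CR, Dkk2 fell by 1.89 ± 0.29 relative to Old ND, or 3.70-fold (adjusted p = 0.00214), and fell by 1.22 ± 0.29 relative to Young ND, or 2.33-fold (adjusted p = 0.00735). Relative to Old ND it was -2.30 among first-run arrays (adjusted p = 0.00247), with a second-run difference of -1.12 (adjusted p = 0.214). Against Young ND the second-run difference was -0.52 (adjusted p = 0.207). Old CR-ND over Old CR gave 1.05 ± 0.29 with a 95% interval of 0.44 to 1.66, and it did not pass over all genes (adjusted p = 0.139). Old CR-ND against Old ND gave -0.84 (95% interval -1.45 to -0.23, adjusted p = 0.819), and Old ND over Young ND 0.67 ± 0.29 (adjusted p = 0.167, and 0.0468 among second-run arrays).

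The genes most like Dkk2 by the same measure were Sertad4 (0.32), Cpe (0.34) and Spry4 (0.38), beside an SD of 0.84 for Dkk2. Cpe encodes carboxypeptidase E, which trims peptide hormones, and Spry4 an inhibitor of receptor tyrosine kinase signalling. Cpe averaged 7.77 in Old CR-ND, 6.46 in Old CR, 8.55 in Old ND and 7.40 in Young ND.

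Dkk3, a divergent Dickkopf protein that is not known to bind Lrp6 as Dkk2 does, lay between 7.62 and 8.72 in the 3 old groups. It was 7.91, 7.89, 7.84, 7.68 and 8.05 in Old CR-ND and 7.84, 7.65, 8.03, 8.21 and 8.03 in Old CR. It was 8.31, 7.73, 8.72, 7.88 and 7.62 in Old ND and 7.97, 7.02, 7.50, 6.84 and 6.76 in Young ND. Young ND replicate 1 reached into the range of each old group. Dkk3 rose in Old ND over Young ND by 0.83 ± 0.21, or 1.78-fold (adjusted p = 0.0113), and in Old CR over Young ND by 0.73 ± 0.21 (adjusted p = 0.0231), while Old CR-ND over Young ND gave 0.66 ± 0.21 (adjusted p = 0.0647). The Old CR-ND difference passed with the 2 runs as blocks (adjusted p = 0.0295), after repeated quantile normalization (adjusted p = 0.0438), with genes below the median left out (adjusted p = 0.041) and when Young ND replicate 1 was dropped (adjusted p = 0.00851). It passed among second-run arrays (1.06, adjusted p = 0.00438) and did not pass among first-run arrays (0.38, adjusted p = 0.477). On the other probe set of Dkk3 it did not pass (0.66, adjusted p = 0.0968). Leaving out single arrays gave an adjusted p of up to 0.169.

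The Old ND call of Dkk3 ended on its other probe set (0.67, adjusted p = 0.0705) and when only Old ND and Young ND were fitted (adjusted p = 0.0737). It also ended among first-run arrays (0.76, adjusted p = 0.0744). The Old CR call ended on the other probe set too (0.64, adjusted p = 0.0806). It ended as well on leaving out any of 5 arrays, Old CR replicates 3 and 4 and Young ND replicates 2, 4 and 5 (adjusted p = 0.0506 to 0.0736). Its difference was 0.44 among first-run arrays (adjusted p = 0.304) and 1.23 among second-run arrays. Between Old CR and Old ND the difference was -0.10, with a 95% interval of -0.54 to 0.34.

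Wif1, which binds Wnt proteins outside the cell, was dim in most mice and variable in Old ND. It was 4.08, 3.62, 3.54, 3.42 and 3.56 in Old CR-ND and 3.51, 3.39, 3.59, 3.36 and 3.36 in Old CR. It was 5.04, 4.13, 6.35, 4.16 and 3.54 in Old ND and 4.12, 3.79, 3.64, 3.58 and 4.05 in Young ND. Old ND replicates 1 and 3 were the highest of all arrays, and Old ND replicate 5 lay within the Old CR range. The difference of Old CR over Old ND was -1.20 ± 0.33 and did not pass (adjusted p = 0.0559). It passed without Old ND replicate 4 (adjusted p = 0.0435) or replicate 5 (adjusted p = 0.0121), in the first run alone (adjusted p = 0.0158), with the 2 runs as blocks (adjusted p = 0.0182) and with array weights (adjusted p = 0.0237). Without Old ND replicates 1 and 3 it was -0.50 (adjusted p = 0.142).

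Sfrp1, a secreted protein with a Frizzled-like domain that binds Wnt, had 7.76, 7.82, 8.49, 7.88 and 7.46 in Old CR-ND and 8.58, 9.17, 8.58, 8.32 and 8.17 in Old CR. It had 7.67, 7.08, 6.68, 8.43 and 7.92 in Old ND and 6.85, 7.09, 7.14, 6.88 and 7.14 in Young ND. Every Old CR and Old CR-ND array was above every Young ND array, and the Old ND arrays spread across the ranges of all other groups. The means were 7.88 ± 0.38 in Old CR-ND, 8.56 ± 0.38 in Old CR, 7.56 ± 0.69 in Old ND and 7.02 ± 0.14 in Young ND (SD, n = 5 each).

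Sfrp1 rose in Old CR over Young ND by 1.54 ± 0.25, or 2.92-fold (adjusted p = 0.000268), and in Old CR-ND over Young ND by 0.86 ± 0.25 (adjusted p = 0.042). Leaving out any of 9 arrays, namely any Young ND array or Old CR-ND replicate 1, 2, 3 or 4, ended the Old CR-ND call (adjusted p = 0.0556 to 0.138). Old ND over Young ND gave 0.54 ± 0.25 and did not pass (adjusted p = 0.208). It was 0.12 among first-run and 1.16 among second-run arrays, and it passed without Old ND replicate 3 (0.75, adjusted p = 0.0416). Sfrp1 also rose in Old CR over Old ND by 1.01 ± 0.25, or 2.01-fold (adjusted p = 0.0373), with overlapping groups. That difference was 1.52 in the first run (adjusted p = 0.00399) and 0.00 in the second run, whose 2 Old ND arrays were the highest of their group. The call ended on leaving out any of 7 arrays, Old CR replicates 1 to 4 and Old ND replicates 1 to 3 (adjusted p = 0.0603 to 0.111), and with only the 2 groups fitted (adjusted p = 0.129). A test of the difference between runs did not pass for any member in any comparison. The second run held 1 Old CR array and 2 arrays of each other group. That test therefore had little power, and its outcome does not show that the runs were alike.

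Sfrp2, the relative of Sfrp1 known as a marker of dermal fibroblasts, was dim on its probe set here. It averaged 4.46 ± 0.20 in Old CR-ND, 4.40 ± 0.21 in Old CR, 4.92 ± 0.21 in Old ND and 4.61 ± 0.48 in Young ND (SD, n = 5 each), and no comparison passed. Old CR over Old ND gave -0.52 (95% interval -0.88 to -0.15, adjusted p = 0.137). Old ND over Young ND gave 0.31 (adjusted p = 0.315), and without Young ND replicate 1, at 5.31 the highest array of that group, 0.49 (adjusted p = 0.0409).

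Notum, the secreted enzyme that inactivates Wnt, was 4.29, 4.36, 4.47, 4.43 and 4.55 in Old CR-ND and 4.37, 4.39, 4.45, 4.54 and 4.71 in Old CR. It was 4.42, 4.45, 4.61, 4.26 and 4.46 in Old ND and 4.79, 4.81, 4.96, 4.82 and 4.97 in Young ND. Every old array was below every Young ND array. Notum fell below Young ND by 0.45 ± 0.08 in Old CR-ND (adjusted p = 0.000754), by 0.38 ± 0.08 in Old CR (adjusted p = 0.00201) and by 0.43 ± 0.08 in Old ND (adjusted p = 0.000668). Among second-run arrays the difference from Young ND was -0.41 in Old CR-ND (adjusted p = 0.153) and -0.19 in Old CR (adjusted p = 0.756), and neither passed. The difference between Old CR and Old ND was 0.05. Its low level is a limit on reading the size of these falls.

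**Figure D2:**
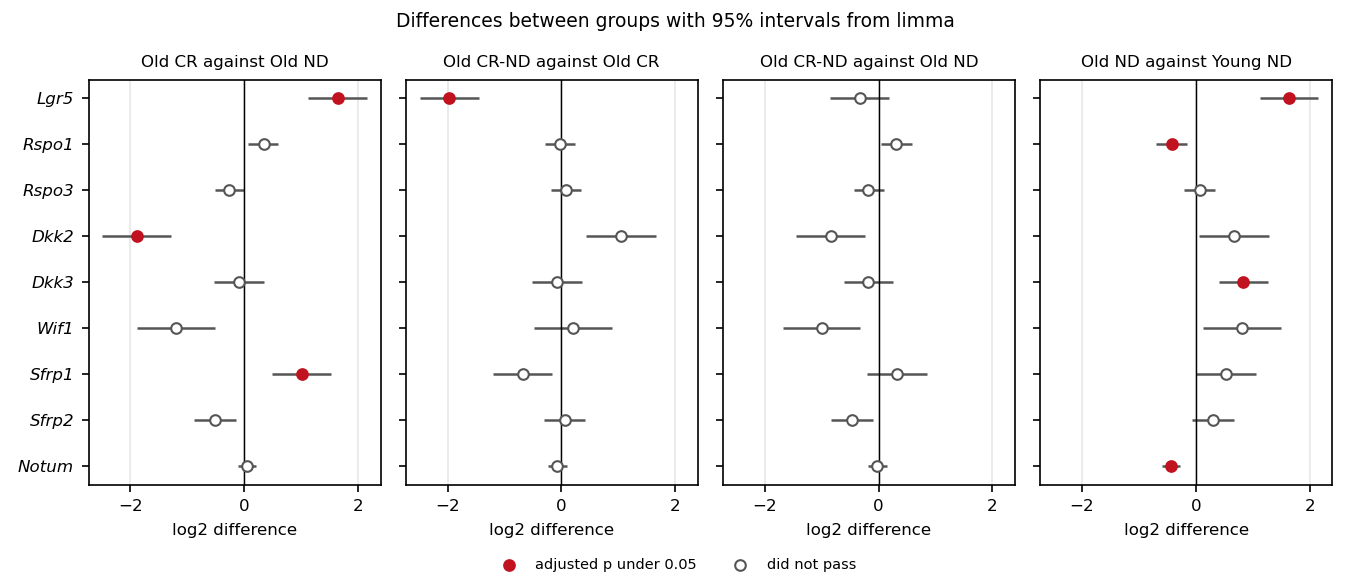
Log2 difference (horizontal axis) with its 95% interval from limma for each gene (rows) in 4 comparisons (panels), filled where the adjusted p passed 0.05. Lgr5 stood at 1.64 in Old CR against Old ND and -1.97 in Old CR-ND against Old CR, and no gene passed in Old CR-ND against Old ND.

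Over the 9 genes, Old ND against Young ND had 2 rises and 2 falls, and 10.9% of all genes passed in either direction. Old CR against Old ND had 2 rises and 1 fall, where 2.39% of all genes passed, and Old CR-ND against Old CR had 1 fall, where 0.333% passed. Old CR against Young ND had 3 rises and 2 falls (12.7% of all genes), and Old CR-ND against Young ND 2 rises and 1 fall (7.04%). Between Old CR-ND and Old ND limma called none of the 9, where 0.00585% of all genes passed, and 4 of the 9 were at an unadjusted p under 0.05, beside 5.08% of all genes. The members' median difference was 0.54 in Old ND against Young ND and -0.10 in Old CR against Old ND, beside 0.00 over all genes in both.

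The groups did not overlap for 2 of the 9 genes in Old ND against Young ND, where 7.38% of all genes had groups apart. The same held for 2 genes in Old CR against Old ND (3.23% of all genes), 1 in Old CR-ND against Old CR (2.17%) and 0 in Old CR-ND against Old ND (0.48%). It held for 4 in Old CR against Young ND (10.4%) and 3 in Old CR-ND against Young ND (6.59%). The members were picked with earlier results of these arrays known, so these counts are a description.

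Old ND replicates 1 and 3, both of the first run, carried the highest Dkk2, Dkk3 and Wif1 of their group. They were also highest in Crabp1 and Inhba of the dermal papilla marker list, the fibroblast cluster at the base of the hair follicle, and in Sox9 of the hair follicle list, genes chosen after their values were seen. Other genes of the hair follicle list did not share this: Krt79 (5.02 and 5.04), Lhx2 (3.92 and 3.99) and Shh (6.00 and 5.91) were at their lowest of the group in Old ND replicates 1 and 3. Nor did the other measured genes of the dermal papilla list, Corin, Sox2, Prom1 and Hhip, all of them dim. Sox2 was at its lowest of the group in these replicates (2.94 and 2.91). Corin (3.71) and Prom1 (3.70) were highest in Old ND replicate 5. Crabp1, a retinoic acid binding protein, was 9.43, 8.28, 10.73, 8.32 and 7.93 in Old ND. Inhba, a subunit of activin, was 6.86, 5.71, 7.18, 5.52 and 5.58 there. Sox9, a transcription factor of follicle and cartilage cells, was 7.09, 5.90, 6.63, 5.68 and 5.65. It averaged 5.27 in Old CR, 6.19 in Old ND and 5.28 in Young ND. Sox9 passed as a fall in Old CR below Old ND and as a rise in Old ND over Young ND. Both calls ended without Old ND replicates 1 and 3, at -0.48 (adjusted p = 0.201) and 0.46 (adjusted p = 0.109). Arrays of other groups shared part of this pattern. Young ND replicate 1 was highest of its group in Dkk2 (8.03), Dkk3 (7.97), Wif1 (4.12) and Crabp1 (10.93), but not in Inhba or Sox9. Old CR-ND replicate 1 was highest of its group in Dkk2 (7.79), Wif1 (4.08), Crabp1 (10.11) and Sox9 (6.62), but not in Dkk3 or Inhba.

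The mean of the dermal papilla genes, 6 of 8 listed being measured, was 4.75 to 5.07 in Old CR-ND, 4.52 to 4.84 in Old CR, 4.72 to 5.45 in Old ND and 4.86 to 5.35 in Young ND, with 5.16 and 5.45 in Old ND replicates 1 and 3. Its defining genes Corin, Sox2, Prom1 and Hhip were at 2.84 to 4.62 on all arrays. Of the 6 measured papilla genes, 2 fell in Old CR below Young ND, where 12.7% of all genes passed in either direction. The hair follicle list was at 5.17 to 5.40 in Old CR-ND, 4.99 to 5.15 in Old CR, 5.03 to 5.45 in Old ND, with 5.45 and 5.19 in replicates 1 and 3, and 5.15 to 5.33 in Young ND. The keratinocyte list was at 6.48 to 7.48 in Old CR-ND, 6.41 to 6.97 in Old CR, 5.77 to 7.89 in Old ND, with replicate 1 the highest, and 6.05 to 7.21 in Young ND. Krt5, a keratin of basal keratinocytes, averaged 9.36 in Old CR-ND, 8.69 in Old CR, 8.69 in Old ND and 8.85 in Young ND. The endothelial list was at 5.31 to 5.58 in Old CR-ND and 5.18 to 5.50 in Old CR. It was at 4.85 to 5.44 in Old ND and 4.84 to 5.30 in Young ND. Of its 6 genes, 1 rose over Young ND in each old group, where 7.04% to 12.7% of all genes passed. The immune list was at 4.64 to 4.90 in Old CR-ND and 4.56 to 4.68 in Old CR. It was at 4.52 to 4.85 in Old ND and 4.38 to 4.59 in Young ND, and 1 of its 6 measured genes rose in Old CR over Young ND. The part of these cell types in the members' differences was not tested.

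Without Old ND replicates 1 and 3, Old CR over Old ND was 1.75 for Lgr5 (adjusted p = 0.00772) and -1.44 for Dkk2 (adjusted p = 0.0242), and both calls held. Sfrp1 was 0.75 over Old ND and no longer passed (adjusted p = 0.169). In Old ND against Young ND, the calls of Rspo1 (-0.22, adjusted p = 0.302) and Dkk3 (0.53, adjusted p = 0.119) ended, while those of Lgr5 (1.52, adjusted p = 0.00134) and Notum held. This fit held fewer Old ND arrays, so a call can also end through lost precision.

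**Figure D3:**
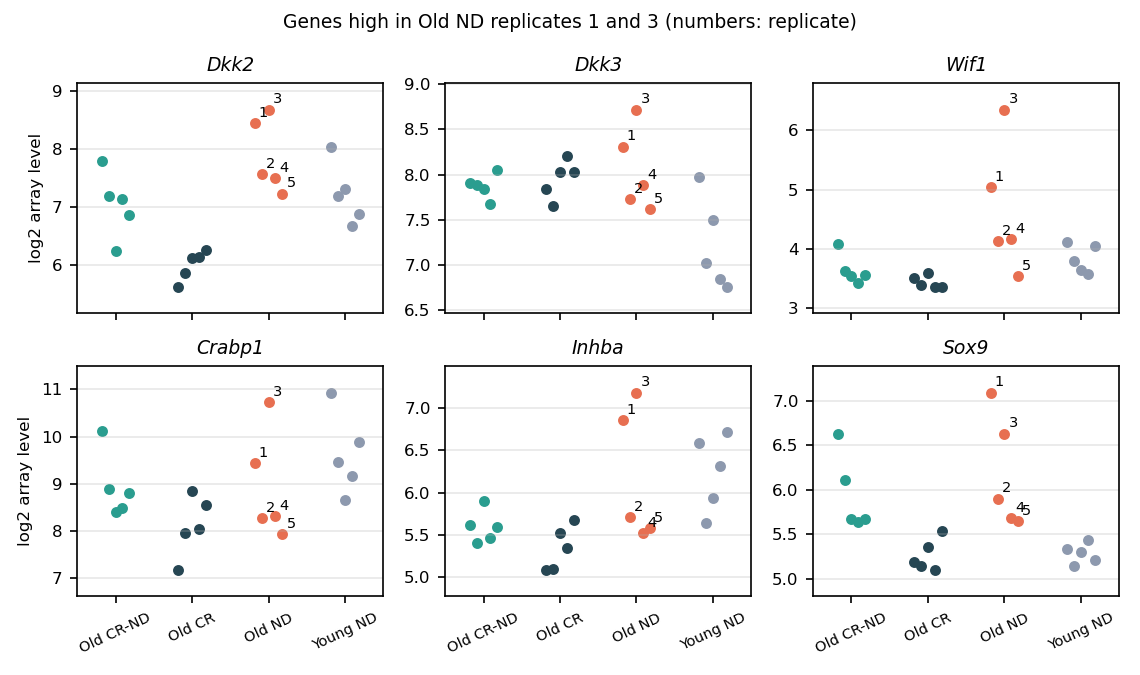
Log2 array level (vertical axis, own scale in each panel) of 3 antagonists and 3 genes of the dermal papilla and hair follicle lists on each array by group (horizontal axis), with replicate numbers beside the Old ND points. The 6 genes were chosen because Old ND replicates 1 and 3 are the highest of their group in them, for example at 5.04 and 6.35 for Wif1.

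Of 85 other Wnt pathway genes listed, 82 were measured. In Old ND against Young ND 7 of them rose and 4 fell, 13.4% beside 10.9% of all genes. In Old CR against Old ND 0 rose and 3 fell, 3.66% beside 2.39% of all genes. In Old CR against Young ND 8 rose and 4 fell (14.6%), and in Old CR-ND against Young ND 4 rose and 2 fell (7.32%). Both comparisons of Old CR-ND with the other old groups had 0 calls by limma, with 1 gene at an unadjusted p under 0.05 against Old ND (5.08% of all genes) and 7 against Old CR (9.79% of all genes).

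The 3 genes that fell in Old CR below Old ND were Igfbp4, Tpbg and Wnt9a. Igfbp4, a carrier of insulin-like growth factors that also inhibits Wnt receptors, averaged 6.88 ± 0.77 in Old CR and 9.39 ± 0.86 in Old ND (SD, n = 5 each), a difference of -2.51 ± 0.45 (adjusted p = 0.00489). Tpbg, a membrane protein known from zebrafish to inhibit Wnt signalling, averaged 9.62 ± 0.18 in Old CR and 10.39 ± 0.53 in Old ND, a difference of -0.78 ± 0.19 (adjusted p = 0.0294). The ligand Wnt9a averaged 6.18 ± 0.28 in Old CR and 6.73 ± 0.14 in Old ND, a difference of -0.55 ± 0.12 (adjusted p = 0.0156). The call of Tpbg ended on leaving out any of 5 arrays, Old CR replicates 1, 3 and 4 and Old ND replicates 1 and 3 (adjusted p = 0.0558 to 0.0846), and that of Wnt9a on leaving out Old CR replicate 2 or 4 (adjusted p = 0.0508 and 0.0516). Without Old ND replicates 1 and 3 together the differences were -1.93 for Igfbp4 (adjusted p = 0.0596), -0.41 for Tpbg (adjusted p = 0.192) and -0.53 for Wnt9a (adjusted p = 0.0841), and none of the 3 calls held. Over all genes, too, calls were far fewer in that fit, which held fewer Old ND arrays. A call that ended there was therefore not shown to rest on those arrays, and the difference of Wnt9a hardly moved.

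The same 3 genes were higher in Old ND than in Young ND, a comparison that shares the Old ND arrays. Igfbp4 rose by 1.91 ± 0.45 (adjusted p = 0.0066), Tpbg by 1.16 ± 0.19 (adjusted p = 0.000222) and Wnt9a by 0.68 ± 0.12 (adjusted p = 0.000418). The receptor Fzd7 rose by 0.50 ± 0.11 (adjusted p = 0.00452), as did Tcf7l2, Pygo2 and Nkd2 by 0.64 to 0.73. Trabd2b, a membrane protease that cleaves Wnt, fell by 0.94 ± 0.14 (adjusted p = 0.000128), and it fell below Young ND by 1.00 ± 0.14 in Old CR-ND and 1.13 ± 0.14 in Old CR too. Wnt5a, a ligand of beta-catenin-independent signalling, fell by 0.64 ± 0.16 (adjusted p = 0.0126) and its receptor Ror2 by 0.91 ± 0.22 (adjusted p = 0.00998), both with overlapping groups. The calls of Igfbp4, Fzd7, Tcf7l2, Nkd2, Ror2 and Tnik ended without Old ND replicates 1 and 3 (adjusted p = 0.0501 to 0.124). That fit held fewer arrays, and the difference of Ror2 moved little, to -0.86, while that of Igfbp4 was 1.33.

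Lgr4, the relative of Lgr5 that is widely expressed, rose in Old CR over Young ND by 0.53 ± 0.14 (adjusted p = 0.0113), where it averaged 6.89 ± 0.17 in Old CR and 6.36 ± 0.17 in Young ND (SD, n = 5 each). Rspo2 and the ligase Rnf43 were dim in every group, at means of 3.45 to 3.51 and 3.49 to 3.59. Rspo4, Lgr6 and Znrf3 did not pass in any comparison. Rspo4 averaged 6.99 ± 0.70 in Old CR-ND, 6.45 ± 0.28 in Old CR, 7.10 ± 1.03 in Old ND and 7.48 ± 0.46 in Young ND (SD, n = 5 each). Among 8 target genes of Wnt signalling, limma called none between Old CR and Old ND, and 2 were at an unadjusted p under 0.05, beside 14.5% of all genes. Axin2, the most used readout of beta-catenin signalling, averaged 7.84 ± 0.15 in Old CR-ND, 8.13 ± 0.23 in Old CR, 7.83 ± 0.16 in Old ND and 7.81 ± 0.28 in Young ND (SD, n = 5 each), and Old CR over Old ND gave 0.30 ± 0.13 (adjusted p = 0.258). Against Young ND, the targets Nkd2 (0.87 ± 0.19, adjusted p = 0.0035) and Sp5 (0.63 ± 0.15, adjusted p = 0.00807) rose in Old CR.

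The other pathway genes that rose in Old CR over Young ND were Wls and Porcn, which carry and lipidate Wnt for secretion, by 0.50 ± 0.12 (adjusted p = 0.00937) and 0.43 ± 0.11 (adjusted p = 0.0128), the signal transducer Dvl2 by 0.68 ± 0.16 (adjusted p = 0.00608), and Fzd7 and Pygo2. Ctnnbip1, an inhibitor that binds beta-catenin, fell by 0.36 ± 0.07 (adjusted p = 0.00131), and Ror2 and the kinase Tnik fell as well. In Old CR-ND over Young ND, Wnt9a rose by 0.53 ± 0.12 (adjusted p = 0.0058), the receptor Fzd4 by 0.58 ± 0.16 (adjusted p = 0.0251) and Sp5 by 0.55 ± 0.15 (adjusted p = 0.0309), as did Pygo2, and Tnik fell by 0.61 ± 0.17 (adjusted p = 0.0356). In that comparison 3 calls ended on leaving out single arrays. For Fzd4 these were Old CR-ND replicates 1 to 3 and Young ND replicate 5 (adjusted p up to 0.0759). For Sp5 they were Old CR-ND replicates 3 and 4 and Young ND replicates 2 to 5 (up to 0.094), and for Tnik Old CR-ND replicates 1, 2, 4 and 5 and Young ND replicates 1, 2 and 5 (up to 0.117).

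**Figure D4:**
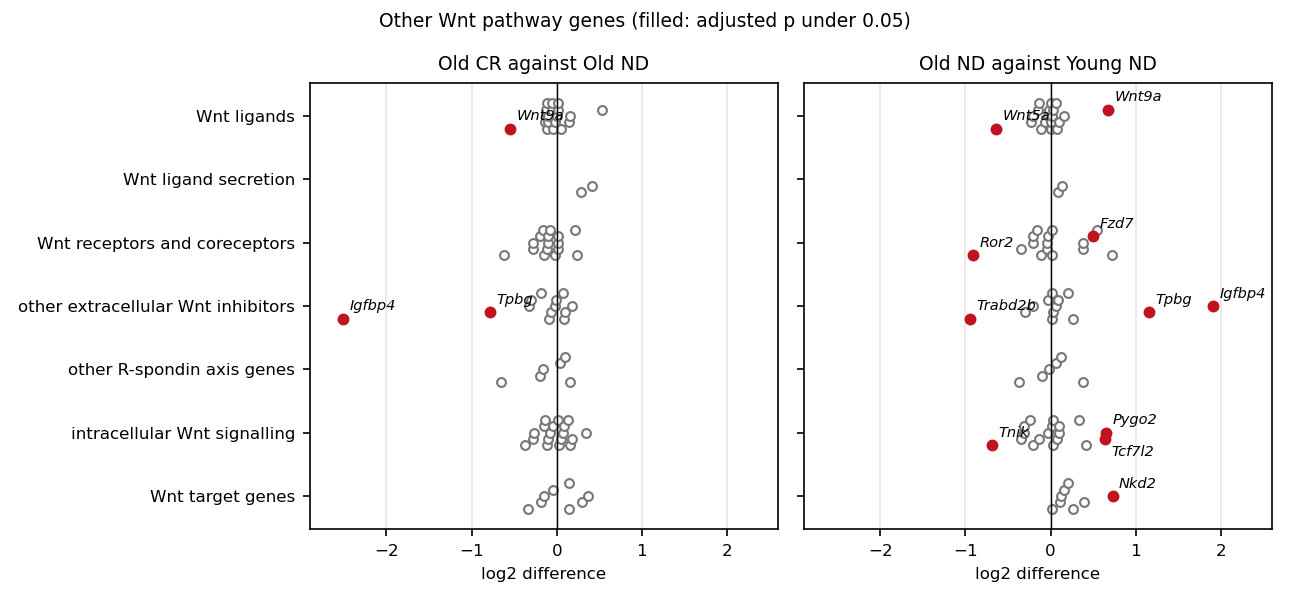
Log2 difference (horizontal axis) of each of the 82 other Wnt pathway genes, grouped by role (rows), in Old CR against Old ND (left) and Old ND against Young ND (right), filled and named where the adjusted p passed 0.05. Igfbp4 lies at -2.51 on the left and 1.91 on the right, and the other named genes lie within 1.16 of 0.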

How the data were processed

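One Affymetrix mouse array per mouse was measured in 20 mice, 5 per group. The deposited values are log2 levels of probe sets that the authors obtained with RMA (affy package), per the submitters' processing notes; versions are not given in the sources used here. They lie between 2.71 and 13.46. Of 45141 probe sets, 28898 were annotated to 1 gene, 551 to several and 15692 to none, and only the first were used. Symbols were updated through a RefSeq table of GRCm38.p6, with 28689 matches, and the brightest probe set over all arrays stood for each of 17097 genes.

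All 20 arrays were fitted with 1 mean per group in limma 3.58.1 under R 4.3.3, by lmFit and eBayes (16 residual and 4.19 prior degrees of freedom). Tests were two-sided, with Benjamini-Hochberg adjustment over the 17097 genes and a threshold of 0.05, and 95% intervals are unadjusted. The pipeline was tested on simulated data. Precision depends on the number of arrays, since arrays have no read depth; the median standard error was 0.10. Each array is 1 mouse per the labels.

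The genes and lists were chosen with earlier results of these data known. All measured members are named. Other pathway genes are named where they passed, plus R-spondin axis genes and Axin2, and the 3 genes most like Lgr5 and Dkk2 by root mean square difference of centred levels. Genes of the marker lists named beside Old ND replicates 1 and 3 were chosen after their values were seen. Alternatives were filters on dim genes, the mean of probe sets, another normalization, centring, array weights, a trended robust eBayes, fits of just 2 groups, the runs of array numbers, each array left out and other thresholds. The other probe sets, and leaving out Old ND replicates 1 and 3 together, were added after seeing the data. The labels state neither what the title numbers called array numbers here are nor what their runs stand for.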

Additional observations from a re-analysis of the deposited data

How the results depend on the processing

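The 9 genes gave 1155 values under alternatives in the 6 comparisons, of which 52 lost a call and 19 gained one. In 34 the sign differed from the reported one, 13 of them among second-run arrays, and in 18 of the 34 the value moved by more than its standard error. None of the 34 was past the threshold as reported or under the alternative. They included Sfrp1 in Old CR-ND against Old ND (-0.50, reported 0.33), Sfrp2 in Old CR against Young ND (0.39, reported -0.21) and Dkk3 in Old CR against Old ND (0.28, reported -0.10), each among second-run arrays. Members called in Old ND against Young ND numbered 4, against 2 with only these 2 groups fitted, 2 without Old ND replicates 1 and 3 together and 2 at a threshold of 0.01. Those in Old CR against Old ND numbered 3, against 5 from first-run arrays and 0 from second-run arrays. Old CR-ND against Old CR had 1, against 0 in the second run, and Old CR against Young ND had 5, against 3 in the second run. Leaving out 1 array gave 3 to 5 members in Old ND against Young ND, 2 to 4 in Old CR against Old ND, 4 to 5 in Old CR against Young ND, 2 to 3 in Old CR-ND against Young ND, 1 in Old CR-ND against Old CR and 0 in Old CR-ND against Old ND. The second run holds 7 arrays, 1 of them Old CR, which is assumed to vary like the other groups.

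Over all genes, Old ND against Young ND had 1870 calls, with 1049 in the second run and 1029 at 0.01. Old CR against Old ND had 409, with 191 from only 2 groups, 711 with the run as a block, 795 for first-run arrays, 1 for second-run arrays, 131 without Old ND replicates 1 and 3, 98 at 0.01, 725 at 0.1, and 201 to 498 without 1 array. Old CR-ND against Old ND had 1, with 0 to 22 over the alternatives. Old CR-ND against Old CR had 57, with 235 under array weights, 120 with the block, 10 and 1 in the first and second run, 19 at 0.01, 149 at 0.1, and 17 to 110 without 1 array. Old CR against Young ND had 2167, with 576 in the second run and 1225 at 0.01. Old CR-ND against Young ND had 1203, with 795 for first-run and 621 for second-run arrays, 593 at 0.01 and as few as 790 without 1 array. No paired analysis was possible because the labels give no replicate numbers shared between groups. Signal near background limits Rspo3, Notum, Sfrp2 and Wif1.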
